A study of Mus musculus with 464 samples.

Results

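The 6 genes described here were grouped as parietal endoderm receptor and anticoagulant genes: Pth1r, Thbd, Procr, Plat, Srgn and Fst. That name is a label and not a result of these data. The 6 genes were followed across single cells of 1 differentiating mouse embryonic stem cell culture. They were taken by name, and all 6 were among the 21973 genes of the expression table. R1 embryonic stem cells, grown with 15% Knockout Serum Replacement and 1000 U/ml LIF, were made into embryoid bodies in hanging drops for 48 h and then given retinoic acid, a vitamin A derivative that drives neural and endodermal differentiation, at a labelled dose of 0.5 mM for 4 days. Cells were captured on a Fluidigm C1 device and read with SMART-Seq V4 and Nextera XT libraries. All cells belonged to 1 group, and no untreated cells or separate cultures were analysed here, so differences below are between kinds of cells within that culture and carry no test. Intervals on shares of cells are exact Clopper-Pearson 95% intervals, and they cover counting error only.

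Parietal endoderm is the migratory extraembryonic layer of the early rodent embryo that lays down Reichert's membrane, a thick basement membrane of laminin, type IV collagen and nidogen on the inside of the trophoblast. Its cells carry the receptor for parathyroid hormone and parathyroid hormone-related protein, which signals through cyclic AMP and is known to drive the conversion of primitive to parietal endoderm. Thrombomodulin and the endothelial protein C receptor are the surface proteins through which thrombin activates protein C. Tissue plasminogen activator, serglycin and follistatin are secreted products with separate roles in fibrin breakdown, storage and presentation of charged proteins, and binding of activin. The common label of anticoagulant genes therefore fits Thbd and Procr in the strict sense only.

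The table held 1 column for each deposited cell library, and all but 6 columns passed limits of 2000 or more genes above 0 and no more than 20% of the signal in mitochondrial genes. Among them, 55 pairs correlated at r = 0.946 to 0.99 across genes, whereas no other pair exceeded 0.917. Each such pair was averaged and counted as 1 cell, which left cells with a median of 6779 genes above 0 (range 2059 to 10256). Values are in TPM, a relative unit that is already divided by transcript length and holds no read depth. The threshold for detection of a gene was 1 TPM. Column sums came to 54.2% to 95.1% of the full scale of that unit.

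Cells were classed with markers that include none of the 6 genes. Endoderm-marker cells had at least 4 of 8 extraembryonic endoderm genes detected (such as Gata4, Gata6, Sox17 and Dab2), and they made up 26.1% of cells (21.8% to 30.6%). The cut fell in a sparse region, since 4 cells had 3 of these genes and 8 cells had 4. In 44 endoderm-marker cells at least 5 of 10 neural progenitor genes were detected too. They are called cells with neural markers below, and neuron genes did not enter this split. The summed level of the 12 neuron genes had a median of 144.4 TPM in these 44 cells. In the remaining 61 its median was 10.55 TPM and its maximum 2478 TPM. These 44 cells had a median summed neural progenitor level of 382.8 TPM, against 3.72 TPM in the remaining 61 endoderm-marker cells and 655 TPM in progenitor-marker cells, and a median of 8111 genes above 0, against 6325. No doublet caller was run, so whether a capture site held 2 cells was not tested, and the level of each gene is given for both subsets. The other cells were progenitor-marker cells (40.9% of all cells), neuron-marker cells with at least 8 of 12 neuron genes (29.03%) and 16 cells with neither profile. Of the 10 parietal genes used below, a median of 9 were detected per endoderm-marker cell and 2 per other cell, and of the 15 visceral genes a median of 4 and 1. Gene number was close between the 2 main classes, with medians of 6791 in endoderm-marker and 6749.5 in other cells.

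Upstream sequence was at hand for 3 of the 6 genes in RefSeq's promoter table (assembly GRCm38.p6), and it is shown because receptor signalling through cyclic AMP acts on the TGACG core of its response element. The windows end next to the annotated gene, and the Procr window is shorter because the start used by the table lies inside the annotated gene. All are written 5′ to 3′ on the gene's strand. Capitals mark TGACG or its reverse complement CGTCA.
Pth1r, chr9:110747146-110747395, minus strand: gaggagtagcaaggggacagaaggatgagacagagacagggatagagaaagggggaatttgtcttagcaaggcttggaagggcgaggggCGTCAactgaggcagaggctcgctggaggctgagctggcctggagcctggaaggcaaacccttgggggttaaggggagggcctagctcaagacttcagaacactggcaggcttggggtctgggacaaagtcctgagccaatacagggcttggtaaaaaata
Procr, chr2:155750967-155751124, plus strand: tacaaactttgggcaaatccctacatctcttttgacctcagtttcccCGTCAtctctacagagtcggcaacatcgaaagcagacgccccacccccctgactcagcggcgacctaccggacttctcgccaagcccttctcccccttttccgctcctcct
Srgn, chr10:62527446-62527695, minus strand: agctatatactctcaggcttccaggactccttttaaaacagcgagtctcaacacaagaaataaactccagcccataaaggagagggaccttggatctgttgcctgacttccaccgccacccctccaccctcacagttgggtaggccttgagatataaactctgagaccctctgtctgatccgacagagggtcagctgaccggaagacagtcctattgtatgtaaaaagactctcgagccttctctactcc

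The Pth1r and Procr windows each held 1 match, on the reverse strand. The Srgn window shown held none of these letters on either strand, while the window of a second Srgn start, inside the gene, held 1 on the forward strand, so 3 of the 6 windows listed for these genes had a match. For comparison, 17.8% of 32851 promoters of the same table held TGACG on either strand in the 250 bases before their start. The retinoid receptor letters AGGTCA lay on the reverse strand of the Procr window as well, and 4607 of the 32851 promoters held them on either strand. Over the same 6 windows (1 for Procr, 3 for Pth1r and 2 for Srgn), the GATA-factor letters AGATAA or TGATAA were found in 0, against 16.6% of promoters, and the SOX-factor letters ACAATG in 0, against 10.7%. A match is a description of the letters and does not show a bound site.

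All 6 genes had a mean TPM at least 2-fold higher in endoderm-marker cells than in other cells, and 16.3% of the 13593 genes detected in at least 10 cells did so as well (21.3% were at least 2-fold lower). The genes were picked with earlier results of these data known, so their count is a description. Thbd and Procr passed the limit of 10 cells through endoderm-marker cells alone, and the 4 genes detected in at least 10 cells of each class were all higher. By mean TPM in endoderm-marker cells the order was Srgn, Pth1r, Fst, Plat, Procr and Thbd, at 3518, 186.2, 105.3, 81.9, 12.8 and 4.59 TPM. The cell ranges of all 6 genes overlapped, that of Srgn beginning at 2.67 TPM. In mean level Srgn lay more than 10-fold above the next gene. Srgn ranked 19 among all genes by mean TPM in endoderm-marker cells, and Thbd ranked 8343.

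**Figure D1:**
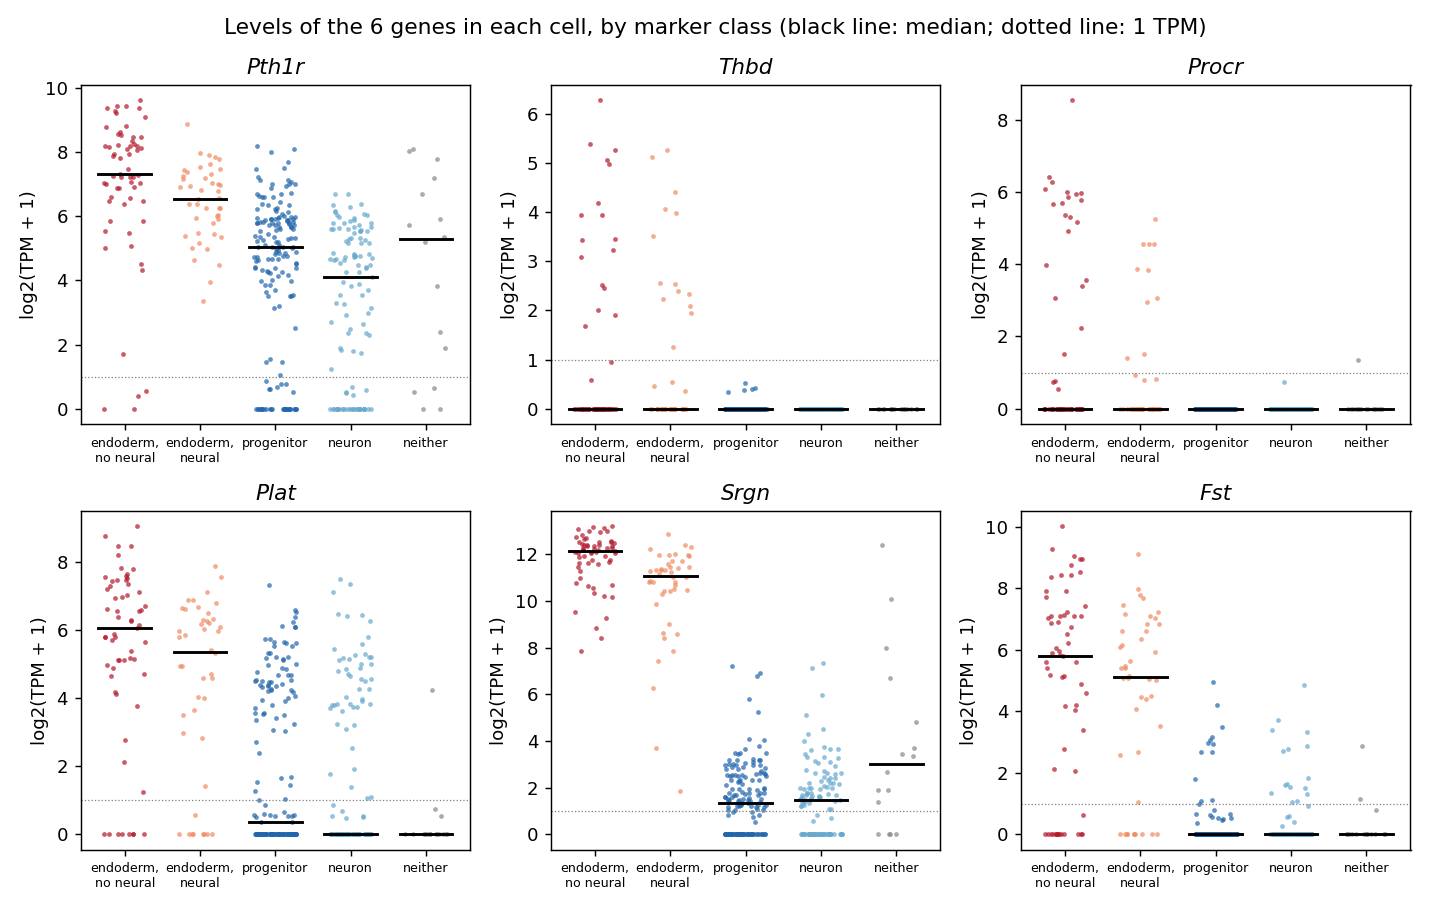
Level of each gene in each cell, as log2(TPM + 1), by marker class, with 1 point per cell, a black line at the class median and a dotted line at 1 TPM. Pth1r points spread through all 5 classes, Thbd and Procr points above the dotted line lie almost only in the 2 endoderm-marker classes, and Srgn separates the classes by level.

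Pth1r (chromosome 9, 110722085 to 110747145 in GRCm38.p6, as for the positions that follow) encodes the receptor for parathyroid hormone and its related protein. It was not restricted to endoderm-marker cells. Pth1r was detected in 96.2% of endoderm-marker cells (90.5% to 98.95%) and in 75.2% of other cells (69.9% to 79.97%), so the classes differed in level far more than in presence. In endoderm-marker cells it ran from 0 to 784 TPM with a median of 130.9 and a mean of 186.2, and in other cells from 0 to 290.8 TPM with a median of 25.5 and a mean of 37.95, a 4.91-fold difference in mean TPM. The upper range of the other cells reached well above the endoderm-marker median. Across classes the mean ± SD over cells was 239.1 ± 204.2 TPM in the 61 endoderm-marker cells without neural markers, 112.8 ± 85.7 in the 44 with them, 75.8 ± 97.2 in the 16 cells with neither profile, 44.7 ± 51.2 in progenitor-marker cells and 23.3 ± 25.4 in neuron-marker cells. Each neighbouring pair in this order differed by less than the SD of the higher class. Among the cells with none of the 8 endoderm genes detected, Pth1r was still detected in 71.6% (64.8% to 77.6%), at a median of 24.6 TPM.

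Thbd (chromosome 2, 148404471 to 148408188) encodes thrombomodulin, the surface receptor that turns thrombin from a clotting enzyme into an activator of protein C. Its transcript was found in 31 endoderm-marker cells (29.5% of them, 21.02% to 39.2%) and in 0 of the other cells, which allows a share of up to 1.23%. Where detected, its median was 9.79 TPM and its highest value 76.7 TPM, whereas the highest value in any other cell was 0.43 TPM. The share was much the same in endoderm-marker cells without neural markers (27.9%, 17 of 61) and with them (31.8%, 14 of 44). Endoderm-marker cells with Thbd had a median of 6994 genes above 0 and those without it 6775, so the 2 groups were close in gene number.

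Procr (chromosome 2, 155751125 to 155755478) encodes the endothelial protein C receptor, which presents protein C to the thrombin and thrombomodulin complex. Detection was in 31 endoderm-marker cells, the same share as Thbd, and in 1 other cell, at 1.56 TPM. That cell belonged to the 16 with neither profile. In detecting endoderm-marker cells the median was 29.1 TPM, and the highest cell had 4.39 times the value of the next, which was at 84.8 TPM. Leaving out the highest cell lowered the mean over endoderm-marker cells from 12.8 to 9.36 TPM. Mean Procr was 19.6 TPM in endoderm-marker cells without neural markers and 3.45 TPM in those with them, with detected shares of 34.4% (22.7% to 47.7%) and 22.7% (11.5% to 37.8%).

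Plat (chromosome 8, 22757722 to 22782848) encodes tissue plasminogen activator, the protease that makes plasmin on fibrin and also acts in the nervous system. Plat was detected in 88 endoderm-marker cells (83.8%, 75.3% to 90.3%) and in 41.3% of other cells (35.6% to 47.1%). Its level ran from 0 to 535 TPM with a median of 55.4 in endoderm-marker cells, and from 0 to 180.7 TPM with a median of 0 in other cells. Mean TPM differed 6.35-fold, at 81.9 against 12.9. Progenitor-marker and neuron-marker cells had like shares (43.6% and 42.7%) and like means (12.8 and 14.7 TPM), while 1 of the 16 cells with neither profile had it.

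Srgn (chromosome 10, 62493833 to 62527445) encodes serglycin, the small proteoglycan core protein best known from the granules of blood cells. It was detected in every endoderm-marker cell, from 2.67 to 9399 TPM with a median of 3314. In other cells it was detected in 60.4% (54.6% to 65.995%), but at a median of 1.72 TPM. The mean of 28.4 TPM in other cells rested on few cells, since leaving out the highest (5371 TPM) gave 10.4 and leaving out the 2 highest gave 6.77. At 100 TPM or more, Srgn was found in 97.1% of endoderm-marker cells and in 9 other cells, of which 2 had 3 of the 8 endoderm genes. Mean levels in progenitor-marker and neuron-marker cells were 5.31 and 6.03 TPM. The log2 fold between endoderm-marker and other cells was 6.95, and it was 4.44 when 6 endoderm genes were required, 9.44 in column set 1, 6.32 in set 2 and 9.60 as a difference of mean log2 values.

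Fst (chromosome 13, 114452262 to 114458989) encodes follistatin, a secreted protein that binds activins and blocks their receptors. Detection was in 80 endoderm-marker cells (76.2%, 66.9% to 83.96%) and 30 other cells (10.1%, 6.89% to 14.1%). Levels in endoderm-marker cells ran from 0 to 1036 TPM with a median of 41.5 and a mean of 105.3, against a mean of 0.709 TPM and a maximum of 30.3 TPM elsewhere, a 148.5-fold difference in mean (log2 fold 7.21). The log2 fold was 5.27 when 6 endoderm genes were required, which moves cells with 4 or 5 of them to the other class, and 4.40 as a difference of mean log2 values. Fst detection was 47.1% (8 of 17) in cells with 4 or 5 of the endoderm genes, 71.4% with 6, 89.7% with 7 and 83.9% with 8. Plat followed a like order over these 4 steps, at 58.8% (32.9% to 81.6%), 82.1%, 93.1% (77.2% to 99.2%) and 90.3%. The 4 Plat intervals all overlapped. Thbd and Procr had no such order, with Thbd at 29.4%, 28.6%, 20.7% and 38.7%.

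Endoderm-marker cells without neural markers had higher means than those with them for all 6 genes. The ratio of means was 2.12 for Pth1r, 1.94 for Plat, 1.92 for Srgn, 1.86 for Fst, 1.41 for Thbd and 5.66 for Procr. Pth1r and Procr were past 2-fold, as were 9.66% of 11423 genes (15.4% were at least 2-fold lower). Detected shares did not all go the same way, since Pth1r, Thbd and Fst were detected in 93.4%, 27.9% and 75.4% of cells without neural markers and in every cell, 31.8% and 77.3% of those with them. The summed level of the 8 endoderm genes moved the same way, with medians of 693 TPM and 405.9 TPM, and its part in these ratios was not tested.

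Within endoderm-marker cells, 4.15 ± 0.97 of the 6 genes were detected per cell (mean and SD over cells), against 1.87 ± 0.95 in other cells. At least 3 of the 6 were detected in 95.2% of endoderm-marker cells (89.2% to 98.4%) and in 84 other cells (28.2%, 23.2% to 33.7%). At least 4 were detected in 82 (78.1%) and in 4 (1.34%) respectively, and at least 5 in 39 (37.1%, 27.9% to 47.1%) and in 0. The most frequent combination was Pth1r, Plat, Srgn and Fst without either protein C gene, in 31 cells. The same 4 genes came with Thbd in 19 cells, with Procr in 12 and with both in 6.

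**Figure D2:**
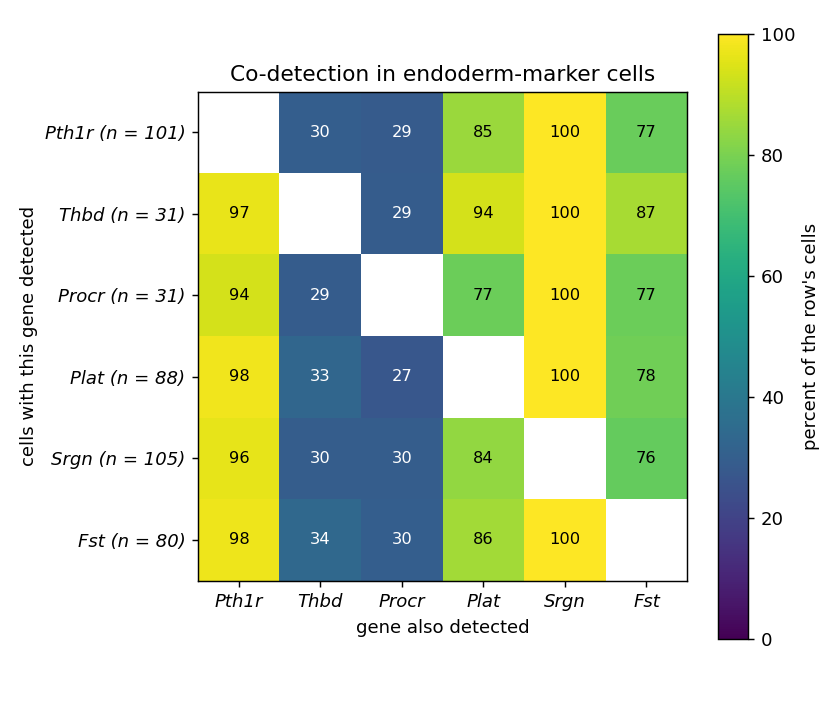
Co-detection of the 6 genes in endoderm-marker cells. Each square gives the percent of cells with the row's gene in which the column's gene was also detected, and the Thbd and Procr columns stay near 30% in most rows while the Srgn column is full throughout.

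Thbd and Procr have products that act on the same substrate. At least 1 of them was detected in 53 endoderm-marker cells (50.5%, 40.5% to 60.4%), and 9 cells had both. At the 1 TPM limit, Procr was detected in 29.03% of the cells with Thbd (14.2% to 48.0%) and in 29.7% of the cells without it (19.7% to 41.5%). That likeness did not hold at other detection limits. With a limit of 5 TPM, Thbd was detected in 25.9% of Procr-detecting cells and in 17.1% of all endoderm-marker cells. Whether the 2 genes are detected independently was not tested. Thbd was detected in 32.95% of cells with Plat (23.3% to 43.8%) and 2 of 17 cells without it (11.8%, 1.46% to 36.4%), and in 33.8% of cells with Fst (23.6% to 45.2%) and 4 of 25 without it (4.54% to 36.1%). Both pairs of intervals overlapped.

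By Pearson's r of log2(TPM + 1) over endoderm-marker cells, the 15 pairs of the 6 genes ran from −0.18 (Pth1r and Procr) to 0.40 (Srgn and Fst). Plat and Srgn stood at 0.31, and Thbd and Plat at 0.30. Pth1r stood at −0.13 with Thbd and at 0.08 with Srgn. Over all cells the 15 values were all positive, from 0.16 to 0.76. Cells of all classes enter these values, and the part of the class difference in them was not tested. All cells come from 1 culture, and the correlation of each gene with the number of genes above 0 lay between −0.29 (Srgn) and 0.06 (Thbd) in endoderm-marker cells.

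A parietal minus visceral score then ordered the endoderm-marker cells. It was the mean log2(TPM + 1) over 10 basement membrane and parietal genes (such as Lama1, Col4a1, Sparc and Snai1) minus that over 15 visceral endoderm genes (such as Ttr, Afp, Apoa1 and Hnf4a), and none of the 6 genes was in either list. Split at the median, 53 parietal-leaning cells scored 4.32 to 7.45 and 52 visceral-leaning cells −0.64 to 4.31. The score is continuous, and 14 cells lay within 0.25 of the cut, 5 above and 9 below it. Markers of visceral endoderm remained on both sides, with a median summed level of 562 TPM in parietal-leaning and 2119 TPM in visceral-leaning cells. Visceral-leaning cells also had a higher median level of the parietal list (5.19) than of the visceral list (2.54, mean log2 values), so the name marks the lower scores and not a visceral cell type. Each side held 22 cells with neural markers, and median gene number was 6619 in parietal-leaning and 6989.5 in visceral-leaning cells. Set 1 of the 2 column sets in the table contributed to 20 parietal-leaning and 33 visceral-leaning cells.

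Fst differed most between the 2 sides. It was detected in 98.1% of parietal-leaning cells (89.9% to 99.95%) and 53.8% of visceral-leaning cells (39.5% to 67.8%), with means of 168.3 and 41.1 TPM, a 4.10-fold difference. In 4 bins of 26 or 27 cells each, from the most visceral to the most parietal score, 12, 17, 26 and 25 cells had it, and its mean was 23.9, 61.1, 115.3 and 223.9 TPM. Across cells Fst had r = 0.60 with the parietal list and −0.37 with the visceral list, and it was the only one of the 6 genes below 0 with the latter.

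Thbd was detected in 37.7% of parietal-leaning cells (24.8% to 52.1%) and 21.2% of visceral-leaning cells (11.1% to 34.7%), with means of 6.82 and 2.33 TPM, a 2.93-fold difference. The difference was under 2-fold among cells without neural markers (log2 fold 0.93) and as a difference of mean log2 values (0.77). Fst and Thbd were thus the 2 of 6 genes at least 2-fold higher, and 5.61% of the 11423 genes compared were at least 2-fold higher in parietal-leaning cells. Pth1r, Plat and Srgn had means 1.79, 1.64 and 1.58 times as high in parietal-leaning cells, and their place under 2-fold depended on the processing. On the log2 scale Pth1r moved from 0.84 to 1.49 in column set 1 and 0.26 in set 2, and it was at 1.04 among cells without neural markers and 1.16 between the outer bins when the score was cut into 3. Plat was at 0.71, and at 0.02 in set 2 and 1.34 as a difference of mean log2 values. Srgn was at 0.66, and at 1.05 between the outer of 3 bins and 1.25 as a difference of mean log2 values. For Pth1r the means in the 4 bins ran 97.2, 167.4, 241.5 and 242.2 TPM, and for Srgn 1989, 3422, 4042 and 4678 TPM. Both genes had their lowest mean in the most visceral bin. Srgn had r = 0.77 with the parietal list and 0.11 with the visceral list.

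Procr did not follow the parietal score. It was detected in 24.5% of parietal-leaning cells (13.8% to 38.3%) and 34.6% of visceral-leaning cells (21.97% to 49.1%), and its means were 6.77 and 18.97 TPM, a log2 fold of −1.49, where 7.53% of genes were at least 2-fold lower. That size rested on the highest cell, which is visceral-leaning, and without it the log2 fold was −0.83. In column set 1 alone the log2 fold was 1.07, the other direction, and in set 2 alone −0.28. For these values each set was split at its own median score. The highest Procr cell scored 4.25, just under the main cut at 4.32, so it can change sides between splits. No direction is drawn for Procr.

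**Figure D3:**
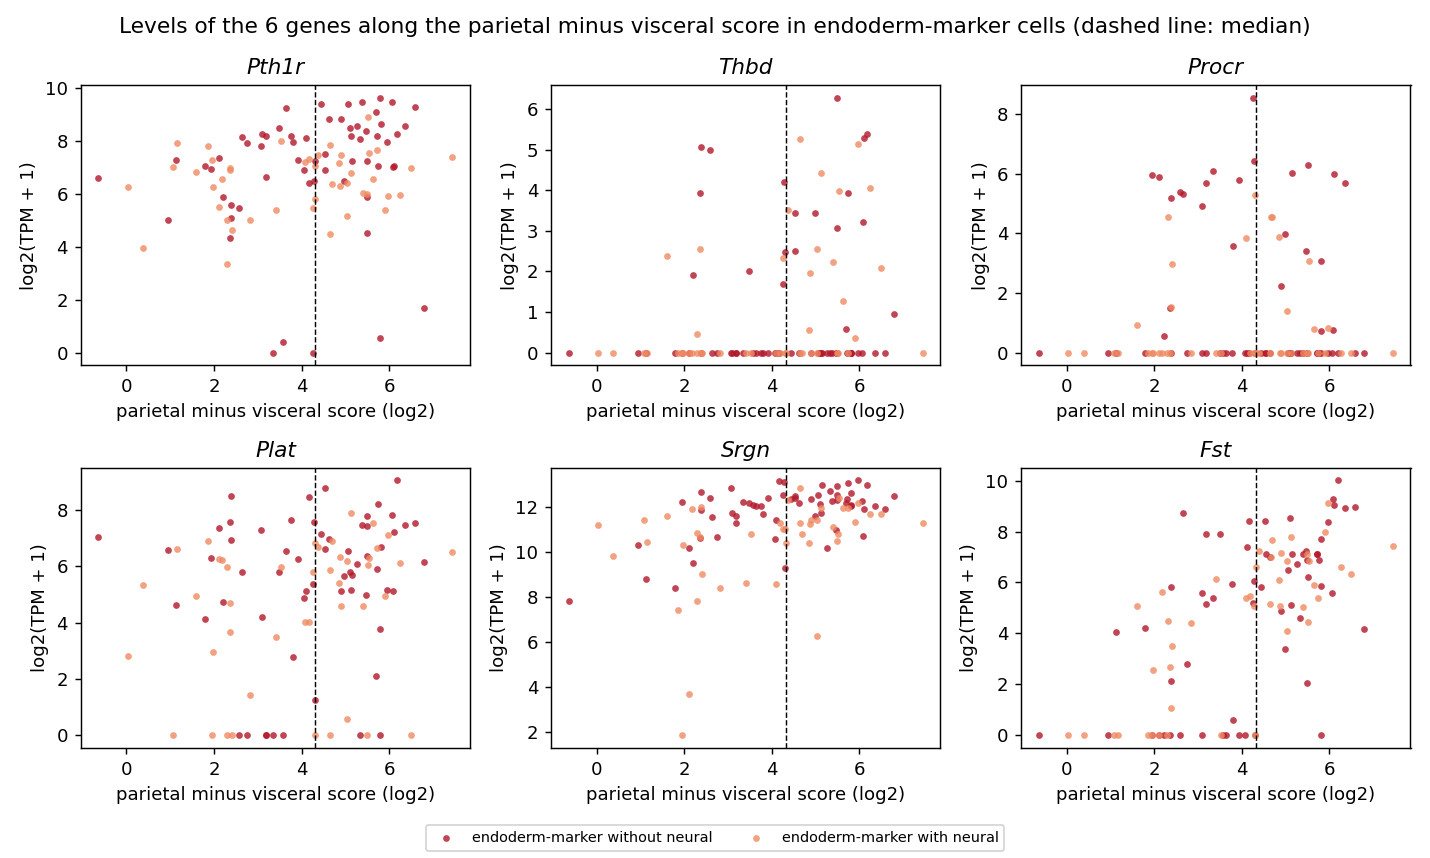
Level of each gene, as log2(TPM + 1), against the parietal minus visceral score in endoderm-marker cells, coloured by presence of neural markers, with a dashed line at the median score. Cells with Fst at 0 sit almost entirely left of the line, and Procr-detecting cells lie on both sides.

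The 55 pairs of near-identical columns gave a measure of technical error. Presence or absence matched in both columns of a pair in 55 of 55 pairs for Thbd, in 96.4% each for Pth1r, Procr and Plat, in 94.5% for Fst and in 72.7% (59.04% to 83.9%) for Srgn. For Thbd and Procr most of these pairs had the gene at 1 TPM or more in neither column (53 and 49 pairs). Some of these pairs had Thbd in 1 column alone below that limit, at up to 0.93 TPM. Thbd was detected in both columns of 2 pairs, and Procr in both columns of 4 and in 1 column alone of 2. All 15 mismatched Srgn pairs were outside the endoderm-marker class, and the highest value seen in 1 column alone was 13.95 TPM. In the 13 endoderm-marker pairs Srgn was detected in both columns every time. Where both columns detected the gene, the median difference was 1.15-fold for Pth1r and Procr, 1.12-fold for Plat, 1.26-fold for Fst and 1.28-fold for Srgn. For the 2 pairs with Thbd the median difference was 2.09-fold. These differences within pairs were far below the differences between classes for Srgn and Fst. Outside the endoderm-marker class, Srgn was detected in both columns of 24 pairs and in 1 column alone of 15.

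**Figure D4:**
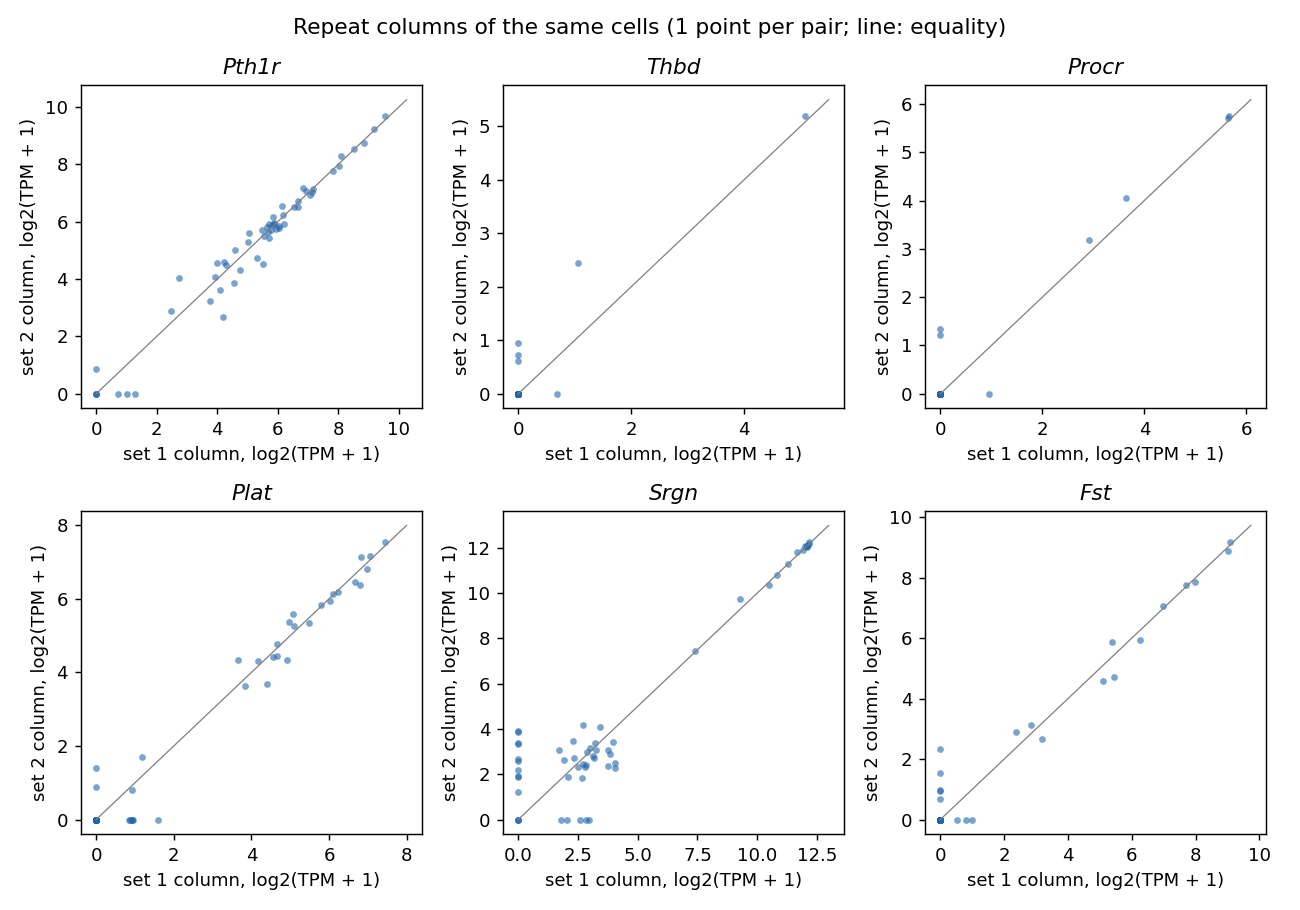
Level of each gene in the 55 near-identical column pairs, as log2(TPM + 1) in the set 1 column on the x axis and the set 2 column on the y axis, with the line of equality. High values fall on the line, and the scattered points at 0 in 1 column for Srgn lie at or below 13.95 TPM.

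The 2 column sets of the table, which differ in the prefix of their column names, held 53 and 65 endoderm-marker columns. In set 1 and set 2, Thbd was detected in 20.8% (10.8% to 34.1%) and 33.8% (22.6% to 46.6%) of them, and Procr in 37.7% (24.8% to 52.1%) and 24.6% (14.8% to 36.9%). The intervals overlapped for both genes. Among endoderm-marker columns, intervals for Pth1r, Plat, Srgn and Fst overlapped between the sets too. Outside that class Srgn differed between the sets. It was detected in 52.05% of set 1 (44.3% to 59.7%) and 68.6% of set 2 columns (61.1% to 75.5%), with medians of 1.14 and 2.78 TPM and means of 4.52 and 46.8 TPM. The mean over other cells rested on few cells, the highest at 5371 TPM, so the difference in means is not read as a trait of the set.

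The genes most like each of the 6 within endoderm-marker cells, by r over cells and among 11423 genes, differed between them. For Srgn the nearest were Sparc (r = 0.90), a matrix protein of the parietal list, Hs3st1 (0.81), the sulfotransferase that makes antithrombin-binding heparan sulfate, Cd63 (0.77), a tetraspanin of endosomes and secretory granules, Retreg1 (0.76), a receptor for turnover of the endoplasmic reticulum, and Ssr4 (0.74), a subunit of the translocon-associated complex. Sparc had r = 0.91 in set 1 and 0.85 in set 2 columns. Mean Hs3st1 was 420 TPM in endoderm-marker and 1.46 TPM in other cells.

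For Fst the nearest genes were the basement membrane components Lama1 (r = 0.61), Nid1 (0.59) and Lamc1 (0.55), together with Kit (0.58), the receptor for stem cell factor, and P4ha2 (0.56), a collagen prolyl hydroxylase. In the 2 column sets these 5 had r between 0.52 and 0.68. The nearest to Pth1r were Mkrn1 (0.54), a ubiquitin ligase, Cited1 (0.53), a transcriptional co-regulator, Fkbp4 (0.51), a co-chaperone, Lrp2 (0.49, and 0.68 and 0.32 in the 2 sets), the endocytic receptor megalin, and Nop10 (0.49), a component of small nucleolar particles. Cited1 averaged 489 TPM in endoderm-marker and 10.6 TPM in other cells, whereas Mkrn1, Fkbp4 and Nop10 had similar means in both.

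Thbd was nearest to Bmper (r = 0.56; 0.65 and 0.54 in the 2 sets), a secreted regulator of bone morphogenetic proteins, followed by Tfec (0.51), a transcription factor, Tmem163 (0.49), Bace2 (0.46), an aspartyl protease, and Plbd1 (0.46). Bmper was detected in 33 of these cells. For Plat the values were lower, from 0.43 for Atp6v0c (0.56 and 0.24 in the 2 sets), a proton pump subunit, through Aqp8 (0.41), a water channel, Nptn (0.41) and Sec22b (0.40), a vesicle fusion protein, to Car8 (0.37). For Procr they ran from 0.41 for Slc44a3, Pced1a and Arhgap10 (both 0.40, the latter 0.50 and 0.24 in the 2 sets), and St3gal5 (0.39), a ganglioside synthase, to 0.38 for Pdlim1. Correlations of this size in sparse single-cell values are no more than an ordering.

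The 5 pathway lists around the 6 genes were compared between endoderm-marker and other cells, where the median log2 fold of all genes tested was −0.23 and 16.3% of genes were at least 2-fold higher and 21.3% at least 2-fold lower. A gene detected in at least 10 cells of 1 class alone enters that count through the class where it is high, so counts are also given for genes detected in at least 10 cells of each class, of which 13.5% were higher and 15.1% lower among 10937. In the thrombin and protein C list, 9 of 14 genes tested were at least 2-fold higher, 0 were at least 2-fold lower, and the median log2 fold was 2.17. Of the 11 detected in both classes, 6 were higher and 0 lower. Tissue factor (F3), which starts coagulation, averaged 672 TPM against 6.72 (99.9-fold), and its inhibitor Tfpi 360 TPM against 3.68 (97.9-fold). Tfpi2, a related inhibitor, was 89.9-fold higher but was detected in only 8 and 3 cells. Prothrombin (F2) averaged 42.75 TPM against 0.53 and was detected in 77 endoderm-marker and 7 other cells. Proc, which encodes the protein C that Thbd and Procr act on, was detected in 5 endoderm-marker cells and 1 other cell. The thrombin receptor F2r was at 0.90-fold and the inhibitor Serpine2 at 1.46-fold. The lowest of the 14 genes tested were F8 (0.87-fold) and Serpinc1 (0.58-fold), which encodes antithrombin. Vwf (0.13-fold, detected in 1 and 8 cells) was lower but in too few cells to be tested.

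Of 8 plasminogen activation genes tested, 3 were at least 2-fold higher and 2 at least 2-fold lower, with a median log2 fold of 0.26, and of the 7 detected in both classes 3 were higher and 1 lower. Plaur, the urokinase receptor, averaged 183.2 TPM against 3.47 (52.9-fold), and the plasminogen and Plat docking pair Anxa2 and S100a10 were 22.2-fold and 6.21-fold higher. Mmp14, a membrane matrix protease, was at 1.65-fold. Lrp1, the clearance receptor for Plat, was at 0.27-fold and Mmp2 at 0.24-fold. Urokinase itself (Plau) was detected in 0 endoderm-marker and 2 other cells.

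The list for parathyroid hormone and cyclic AMP signalling lay the other way, with 2 of 29 genes at least 2-fold higher, 12 at least 2-fold lower and a median log2 fold of −0.58. Of the 20 detected in both classes, 1 was higher and 7 lower. Pde8a, a cyclic AMP phosphodiesterase, was 40.7-fold higher at a low mean of 2.13 TPM against 0.05, and Slc9a3r1, a scaffold that binds the receptor, was 2.03-fold higher. Of the genes tested, Atf1 (1.89-fold) and Gna11 (1.78-fold) came next, and Pde4b (0.12-fold) and Adcy5 (0.08-fold) were lowest. The ligand gene Pthlh was detected in 3 endoderm-marker and 4 other cells, and the second receptor Pth2r was at 0.77-fold. The receptor was thus measured widely in a culture where few captured cells had its ligand's transcript.

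Of 27 proteoglycan core and chain genes, 29.6% were higher and 29.6% lower (8 each), with a median log2 fold of −0.27 near that of all genes. Among the 23 detected in both classes, 7 were higher and 6 lower. Cd44 was 34.7-fold, Sdc4 10.3-fold, and the chondroitin sulfotransferases Chst12 and Chst15 5.01-fold and 4.80-fold higher. Gpc1 (0.28-fold) and Dcn (0.04-fold, detected in 2 and 8 cells) were lowest. The activin and follistatin list lay near the background, with 3 of 14 higher and 3 lower (21.4% each, median log2 fold 0.12), and 2 and 3 of the 11 detected in both classes. Its highest genes among those tested were Bambi, a decoy receptor, at 2.91-fold, Fstl3, a follistatin relative, at 2.45-fold, Acvr1 at 2.07-fold and Lefty1 at 1.74-fold. The activin receptors Acvr2a and Acvr2b were at 0.47-fold and 0.46-fold, and Gdf11, a ligand that follistatin binds, at 0.40-fold. Inhba, which encodes the activin A subunit, was detected in 0 cells of either class.

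**Figure D5:**
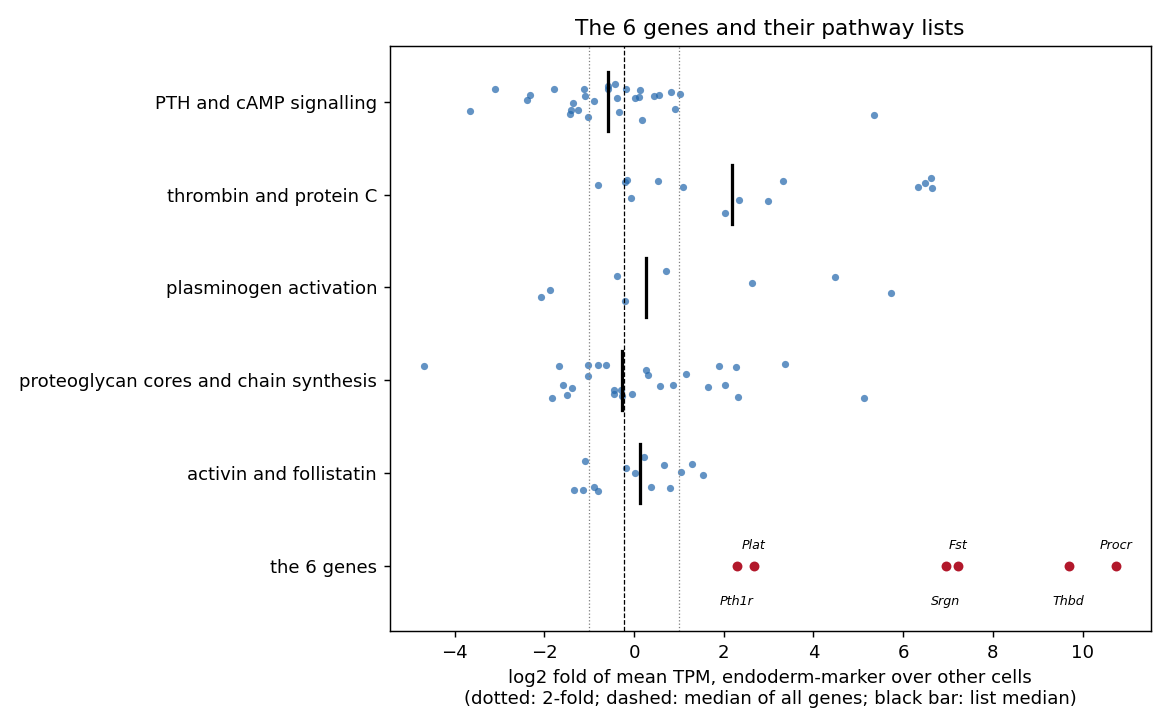
Log2 fold of mean TPM between endoderm-marker and other cells for each tested gene of the 5 pathway lists and for the 6 genes, with list medians as black bars, 2-fold limits dotted and the median of all genes (−0.23) dashed. The thrombin and protein C list sits highest of the 5, at a median of 2.17, and the positions of Thbd and Procr rest on means near 0 in other cells, so no fold is given for them.

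Several of the 6 genes are also expressed by endothelium, blood cells, trophoblast or bone, so markers of these were read in the same cells. Of 12 endothelial genes, 4 were detected in at least 10% of endoderm-marker cells (Flt1 in 80.95%, Esam in 21.9%, Cdh5 and Tek in 11.4% each), while Pecam1 was detected in 4 cells, Kdr in 2, and Tie1 and Emcn in 0. The summed endothelial level ran from 0 to 373.7 TPM with a median of 24.6 in endoderm-marker cells, and from 0 to 370 TPM with a median of 0 in other cells. Of 12 blood and mast cell genes, Kit (74.3%) and Runx1 (45.7%) passed 10%, and Ptprc, Spi1, Hbb-y, Hbb-bh1, Cpa3 and Cd48 were detected in 0 endoderm-marker cells. Of 10 trophoblast genes 0 passed 10%, and 8 were detected in no endoderm-marker cell, Cdx2, Elf5 and Gcm1 among them. Of 10 bone and mesenchyme genes Alpl (43.8%) and Twist1 (11.4%) passed 10%, and Sp7, Bglap, Col1a1, Col1a2 and Prrx1 were detected in 0.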

How the data were processed

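The expression table was deposited by the authors with values that are taken here as TPM. The labels and header do not state the unit, and it was read from the naming of RSEM and from the column sums. Per the submitters' processing notes, STAR, RSEM and mm10 were used, with versions not given. Read depth is unknown, and the number of genes above 0 stands in for it. Of 464 columns, 458 were kept and gave 403 cells, of which 105 were endoderm-marker cells and 298 other cells (165 progenitor-marker, 117 neuron-marker, 16 neither). Column names could not be matched to single samples, and all columns belong to 1 group. Near-identical columns were those with r of at least 0.93 over log2(TPM + 1). Detection meant at least 1 TPM, and folds are ratios of mean TPM among genes detected in at least 10 of the cells compared. Named genes were all 6, the 4 highest and 2 lowest folds of each pathway list together with set ligands, receptors and inhibitors, and the 5 nearest genes of each of the 6. Some genes that this rule or the marker lists hold are not reported here. The members and lists were chosen with earlier results of these data known. Cells of 1 culture are not replicates, so no test was run. The 2 column sets were told apart by the prefix of their column names. The 6 removed columns had Pth1r in 5, Srgn in 3, Plat and Fst in 2 each, Thbd in 1 (at 3.71 TPM) and Procr in 0. Without the cell filter, endoderm-marker cells stayed at 105 and other cells came to 304. The comparison and the search for near-identical columns were tested on simulated data. Python 3.11.15 with numpy 2.4.6, scipy 1.17.1, pandas 2.3.3 and matplotlib 3.10.9 was used.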

Additional observations from a re-analysis of the deposited data

How the results depend on the processing

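All 6 genes stayed at least 2-fold higher in endoderm-marker cells under the 12 alternatives that can alter the means (other ways to treat repeat columns, 1 column set, other marker rules, no cell filter, rescaled cells, mean log2 differences, leaving out cells with most genes or with neural markers, and, chosen after seeing the data, leaving out the cell with the highest value of a gene). Detection limits do not enter these means. Under the same alternatives, 10.9% to 17.3% of genes tested were at least 2-fold higher as well. The share of endoderm-marker cells with at least 3 genes detected fell to 82.86% when only the 4000 highest genes of a cell counted as detected. With that limit Thbd was called in 6.67% of them and Procr in 16.2%. Of the 6 genes, 4 were past 2-fold higher in parietal-leaning cells in column set 1 (Pth1r, Thbd, Procr and Fst), as were 6.26% of genes. Between the outer bins when the score was cut into 3, 4 were as well (Pth1r, Thbd, Srgn and Fst), beside 6.67% of genes. The count lower was 0 in set 1, in set 2, with 6 markers required, on mean log2 differences, in the outer 2 of 3 bins, and without the highest cell. Each column set was split at its own median score, and in set 1 Procr was at 1.07 (log2 fold), the other direction from the main split. The share of Procr-detecting cells that also had Thbd ran from 17.6% to 43.2%. At 1 TPM it was 29.03%, close to the 29.5% with Thbd among all endoderm-marker cells. It was higher than that wider share at the other limits. The values were 43.2% against 34.3% above 0 TPM, 25.9% against 17.1% at 5 TPM, and 17.6% against 6.67% under the 4000-gene limit. Apart from the reduced calls under fewer genes, the cause of these differences was not tested. No paired analysis was possible because there was 1 group and no test. TPM values give no depth, so how many reads stand behind an absent gene is unknown.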
